A study of Mus musculus with 9 samples.

Results

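mmu-miR-150-5p, mmu-miR-342-3p and mmu-miR-181a-5p are mouse microRNAs that lymphocytes hold in large amounts, and mmu-miR-150-3p is the partner arm of the first. Here all 4 were measured in small extracellular vesicles of mouse serum. They were taken by name from the table of known microRNAs, 4 of 1064 entries, and all 4 had reads in each of the 9 libraries. Small RNA was sequenced from vesicles that had been precipitated from serum with a commercial reagent, in 3 groups of 3 libraries. The HFD Sirt3 AKI group came from mice on a high fat diet (HFD) that overexpress Sirt3, a mitochondrial deacetylase, specifically in adipose tissue. The HFD WT group came from wild-type mice on the same diet, and the chow WT group from wild-type mice on chow. The series title gives male mice. The promoter of the transgene, the age of the mice and the length of feeding are not stated in the labels. The library names of HFD WT carry a Sirt3 knock-in code, those of HFD Sirt3 AKI carry the same code with an added suffix, and those of chow WT carry neither. Diet and mouse line can therefore not be told apart between a high fat diet group and chow WT. The table holds microRNAs only, so the level of Sirt3 itself could not be checked. The labels do not state that libraries came from separate animals, so p-values measure the spread between these libraries, which may be technical.

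A mature microRNA is loaded into an Argonaute protein and pairs with messenger RNAs through its seed, the stretch from base 2 to base 8. miR-150 is abundant in mature B and T cells, and in mice it represses the transcription factor Myb and shapes the B cell lineage. miR-342 lies in an intron of Evl and is carried by many leukocytes, lymphocytes among them. miR-181a is highest in developing lymphocytes, above all in thymocytes, where in mice it represses phosphatases and thereby tunes the sensitivity of the T cell receptor. In serum, vesicles come from many cells, and the files hold no marker that ties a read to its cell of origin.

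The mature sequences are shown first because the 4 microRNAs fall into separate seed groups, and because the relatives of miR-181a-5p differ from it by only a few bases. They are from RefSeq (GRCm38.p6), written from the 5′ end, with the seed in capitals. RefSeq sequences were matched for 3 of the 4 microRNAs, and miR-150-5p is given by name only.
miR-150-3p: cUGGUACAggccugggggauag
miR-342-3p: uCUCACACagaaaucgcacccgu
miR-181a-5p: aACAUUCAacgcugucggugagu
miR-181b-5p: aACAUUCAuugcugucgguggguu
miR-181c-5p: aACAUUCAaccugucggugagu
miR-181d-5p: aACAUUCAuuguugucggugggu
The seed ACAUUCA occurred in 4 of the 1679 mature mouse microRNAs of that table, and these were miR-181a-5p, miR-181b-5p, miR-181c-5p and miR-181d-5p. The seeds of miR-342-3p and miR-150-3p occurred in no other entry. Counting from the 5′ end, miR-181b-5p differed from miR-181a-5p by A9U, C10U and A21G and was 24 bases long against 23. miR-181d-5p differed from miR-181b-5p by C12U. miR-181c-5p, with 22 bases, shared its first 10 and last 12 bases with miR-181a-5p. The labels do not state how reads that match several of these were counted, so the split of reads among them is uncertain.

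On GRCm38, miR-150-3p lies at chr7:45121798-45121819 on the plus strand, in Mir150. These bases overlap no other gene of GENCODE M21, and the rest of Mir150 was not searched. miR-342-3p lies at chr12:108658680-108658702 on the plus strand, within an intron of Evl on the same strand. miR-181a-5p has 2 loci on the plus strand, chr1:137966468-137966490 in Mir181a-1 and chr2:38852741-38852763 in Mir181a-2. The first locus lies in an intron of the noncoding gene Gm4258 on the same strand, 97 bases from Mir181b-1. Mir181a-1 also overlaps 2 other noncoding genes, an exon of A430106G13Rik on the same strand and an intron of Gm26936 on the opposite strand. The second locus lies in an intron of Nr6a1 on the opposite strand, 1019 bases from Mir181b-2. Mir181d (chr8:84178716-84178787) and Mir181c (chr8:84178873-84178961) lie close together on the minus strand, within an intron of Nanos3 on the same strand. The mature miR-181a-5p is identical at both of its loci, and its reads cannot be assigned to either. The deposited table gives no coordinates, and the build named by the submitters, mm8, is older than GRCm38.
The hairpin of Mir342 (chr12:108658620-108658718, plus strand) is shown with both mature arms in capitals, miR-342-5p first and miR-342-3p second, because nearly all of its reads fell on the second arm.
Mir342: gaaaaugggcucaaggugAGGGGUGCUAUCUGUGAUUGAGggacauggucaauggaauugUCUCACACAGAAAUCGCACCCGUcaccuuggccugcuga

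Library totals were 1729416 to 2973432 counts in HFD Sirt3 AKI, 1953935 to 2162009 counts in HFD WT, and 225002 to 306974 counts in chow WT. Depth and group can therefore not be told apart where a high fat diet group is set against chow. The biological coefficient of variation, the spread between replicates beyond counting error, was 39.4% in HFD Sirt3 AKI, 13.6% in HFD WT and 10.2% in chow WT. HFD Sirt3 AKI replicates 2 and 3 carry another batch label than the other 7 libraries. Levels are given as normalised CPM, that is, counts per 1000000 of a library total that was multiplied by its TMM factor (trimmed mean of M values). The TMM factors were 0.906 to 1.09 in HFD Sirt3 AKI, 0.757 to 0.832 in HFD WT and 1.28 to 1.33 in chow WT. With library totals in their place, the median log2 fold change of all microRNAs tested shifted. The shift was -0.72 for HFD WT over chow WT, 0.29 for HFD Sirt3 AKI over HFD WT and -0.41 for HFD Sirt3 AKI over chow WT. Both scales are therefore given for each of the 4 microRNAs. A microRNA was called changed at an adjusted p below 0.05, by edgeR's quasi-likelihood test with Benjamini-Hochberg adjustment over 414 microRNAs. Overlap of groups is given as a description only, because the share of all tested microRNAs without overlap was not counted. Counts are given per mature microRNA, and levels of different microRNAs are compared as counts, without a length term. How well each sequence is captured in a library was not measured.

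miR-150-5p, the arm that accumulates in lymphocytes, had the highest mean level of the 4 in both high fat diet groups, was just below miR-181a-5p in chow WT, and rose on the high fat diet. It had 19828, 11550 and 15133 counts in HFD Sirt3 AKI, 10791, 8507 and 9532 in HFD WT, and 926, 975 and 733 in chow WT. In replicate order the normalised levels were 7141, 6107 and 7919 CPM in HFD Sirt3 AKI, 5999, 5540 and 6324 CPM in HFD WT, and 2360, 2543 and 2448 CPM in chow WT. All 6 libraries of the high fat diet lay above all 3 of chow, and the high fat diet groups overlapped. By level it ranked 23 to 29 among all microRNAs in HFD Sirt3 AKI, 24 to 28 in HFD WT and 44 to 48 in chow WT. The mean was 7056 ± 909 CPM in HFD Sirt3 AKI, 5954 ± 394 CPM in HFD WT and 2450 ± 91.3 CPM in chow WT (SD, n = 3 each). The rise in HFD WT over chow WT was 1.28 on the log2 scale (SE 0.12, edgeR adjusted p = 1.52e-05), and 0.55 with library totals (edgeR adjusted p = 0.00155).

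miR-342-3p, a leukocyte microRNA, was close behind in every group. Its normalised levels were 4954, 4616 and 5747 CPM in HFD Sirt3 AKI, 4905, 3894 and 4629 CPM in HFD WT, and 1978, 1933 and 1827 CPM in chow WT. The chow WT libraries were again the 3 lowest, and the high fat diet groups overlapped. The means were 5106 ± 580 CPM, 4476 ± 523 CPM and 1912 ± 77.4 CPM in the same order of groups (SD, n = 3 each). In HFD WT over chow WT it rose by 1.23 (SE 0.13, edgeR adjusted p = 2.93e-05), a 2.34-fold ratio of means beside 2.43-fold for miR-150-5p. With library totals the rise was 0.50 (edgeR adjusted p = 0.00904).

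miR-150-3p, the other arm of the miR-150 hairpin, was far scarcer. It had 150, 85 and 131 counts in HFD Sirt3 AKI, 62, 68 and 47 in HFD WT, and only 6, 7 and 4 in chow WT. The normalised levels were 54.0, 44.9 and 68.5 CPM in HFD Sirt3 AKI, 34.5, 44.3 and 31.2 CPM in HFD WT, and 15.3, 18.3 and 13.4 CPM in chow WT, so that no groups overlapped. The 17 chow WT counts in all have an exact 95% Poisson interval of 9.90 to 27.2, which covers counting error only. The rise in HFD WT over chow WT was 1.21 (SE 0.32, edgeR adjusted p = 0.0114). It did not pass with library totals (0.49, edgeR adjusted p = 0.281) or without chow WT replicate 3 (1.13, edgeR adjusted p = 0.0508).

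miR-181a-5p, the microRNA of developing lymphocytes, went the other way. Its normalised levels were 2181, 2100 and 2340 CPM in HFD Sirt3 AKI, 1487, 1906 and 1396 CPM in HFD WT, and 2416, 2425 and 2872 CPM in chow WT. The 3 groups did not overlap, with chow WT highest and HFD WT lowest. The means were 2207 ± 122 CPM in HFD Sirt3 AKI, 1597 ± 272 CPM in HFD WT and 2571 ± 261 CPM in chow WT (SD, n = 3 each). It fell in HFD WT over chow WT by 0.69 on the log2 scale (SE 0.14, edgeR adjusted p = 0.00303), with a mean 1.61-fold lower in HFD WT. With library totals the change was -1.42 (edgeR adjusted p = 2.80e-05).

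**Figure D1:**
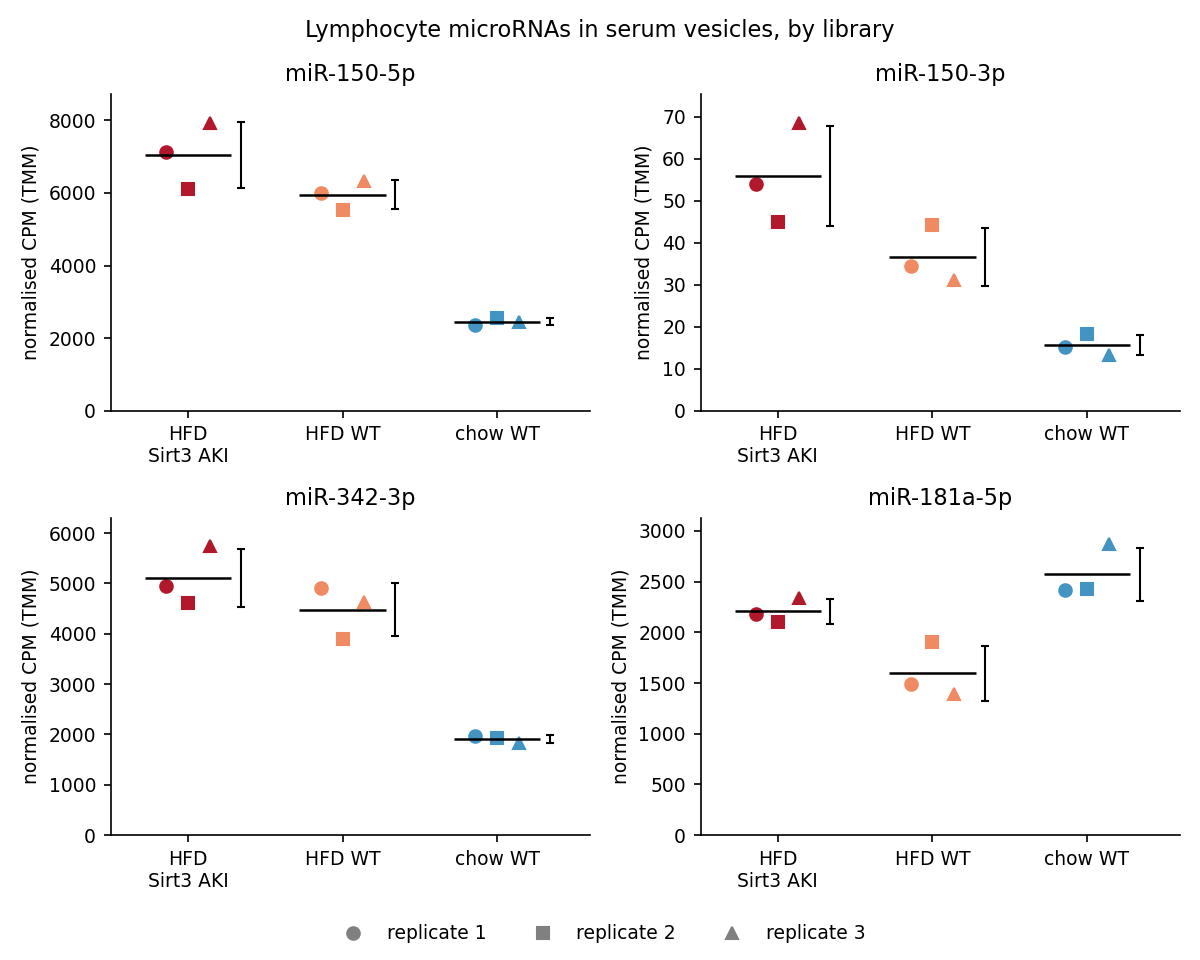
Normalised CPM (y axis, from 0) of miR-150-5p, miR-150-3p, miR-342-3p and miR-181a-5p in each library by group (x axis), with replicates 1, 2 and 3 as circle, square and triangle, the group mean as a line and the SD as a bar. The 3 chow WT libraries lie lowest for the first 3 microRNAs, with means of 2450, 15.6 and 1912 CPM, and highest for miR-181a-5p, with a mean of 2571 CPM.

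In HFD WT over chow WT, then, 3 of the 4 rose and 1 fell. Over all microRNAs tested, 37.7% were called in that comparison (156 of 414), 21.5% as higher and 16.2% as lower. The median log2 fold change was 1.22 for the 4 and 0.15 for all tested. Calls depended on the scaling: 89 were higher and 67 lower with TMM, against 20 higher and 143 lower with library totals.

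In HFD Sirt3 AKI over HFD WT none of the 4 passed the edgeR test, in which 8.94% of all tested microRNAs were called (37 of 414), 1.45% as higher and 7.49% as lower, and 109 had an unadjusted p below 0.05. Of the 4, 2 had an unadjusted p below 0.05, miR-181a-5p and miR-150-3p. Their point estimates were all above 0, with a median of 0.36 beside -0.021 for all tested. For miR-181a-5p the log2 fold change was 0.47 (SE 0.14, edgeR adjusted p = 0.0610), and every HFD Sirt3 AKI library, at 2100 to 2340 CPM, lay above every HFD WT library, at 1396 to 1906 CPM. For miR-150-3p it was 0.61 (SE 0.25, edgeR adjusted p = 0.156), again without overlap. For miR-150-5p it was 0.24 (SE 0.12, edgeR adjusted p = 0.219), and for miR-342-3p 0.19 (SE 0.13, edgeR adjusted p = 0.364), both with overlapping groups. The lack of overlap of the other 2 adds no evidence to the test, since its share among all tested microRNAs was not counted.

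This comparison turned on the scaling. With library totals all 4 were called higher in HFD Sirt3 AKI, among 36 higher and 11 lower calls in place of 6 higher and 31 lower. The log2 fold changes were then 0.55 for miR-150-5p (edgeR adjusted p = 0.0103), 0.90 for miR-150-3p (edgeR adjusted p = 0.0324), 0.49 for miR-342-3p (edgeR adjusted p = 0.0333) and 0.78 for miR-181a-5p (edgeR adjusted p = 0.00993). Relative to the median of all microRNAs on that scale, 0.27, each of the 4 still lay above it. DESeq2 called miR-181a-5p alone (adjusted p = 0.00887) and 61 microRNAs in all. Without HFD Sirt3 AKI replicate 2, edgeR called miR-150-5p (0.37, adjusted p = 0.0408), miR-150-3p (0.77, adjusted p = 0.0441) and miR-181a-5p (0.54, adjusted p = 0.0145). miR-181a-5p was also called alone of the 4 without HFD Sirt3 AKI replicate 1 (adjusted p = 0.0451) and without HFD WT replicate 2 (adjusted p = 0.0421). The calls over all microRNAs moved as well. With each library left out they ran from 13 to 102 in this comparison, and were most without HFD Sirt3 AKI replicate 1.

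Within the larger batch, which holds HFD Sirt3 AKI replicate 1 alone of its group, the log2 fold changes over HFD WT were 0.40 for miR-150-5p, 0.70 for miR-150-3p, 0.28 for miR-342-3p and 0.59 for miR-181a-5p. Only the last passed there (edgeR adjusted p = 0.0378), under the assumption that the lone library varies like the other groups. With the batch label as a term they were 0.26, 0.56, 0.15 and 0.45 in the same order, with edgeR adjusted p from 0.370 to 0.751. The other batch holds HFD Sirt3 AKI libraries only and gives no value.

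In HFD Sirt3 AKI over chow WT, miR-150-5p rose by 1.53 (SE 0.12, edgeR adjusted p = 5.59e-06), miR-342-3p by 1.42 (SE 0.13, edgeR adjusted p = 1.24e-05) and miR-150-3p by 1.82 (SE 0.31, edgeR adjusted p = 9.04e-04). With library totals the rises were 1.10 (edgeR adjusted p = 2.40e-05), 0.99 (edgeR adjusted p = 1.48e-04) and 1.39 (edgeR adjusted p = 0.00252) in the same order. miR-181a-5p was at -0.22 (SE 0.14, edgeR adjusted p = 0.245), and at -0.64 with library totals (edgeR adjusted p = 0.00359). Over all microRNAs tested, 39.9% were called in that comparison, 20.3% as higher and 19.6% as lower. The split was 84 higher and 81 lower, against 40 higher and 130 lower with library totals. Within the larger batch the 4 values were 1.74 for miR-150-5p, 1.57 for miR-342-3p, 1.97 for miR-150-3p and -0.038 for miR-181a-5p. The 3 comparisons share libraries in pairs and are not independent of each other.

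**Figure D2:**
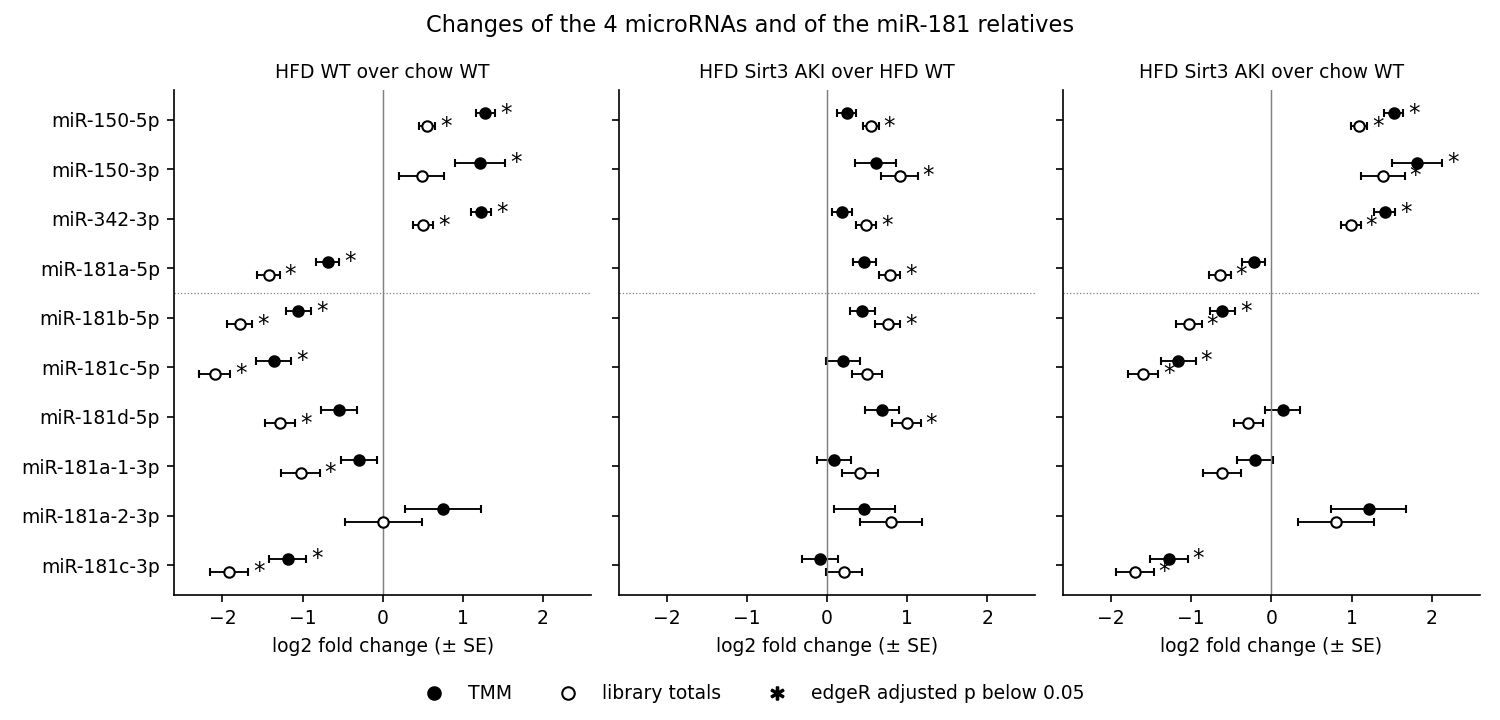
Log2 fold change (x axis, bars are ± SE) of the 4 microRNAs, above the dotted line, and of the tested miR-181 relatives, below it, in each of the 3 comparisons, with TMM (filled) and with library totals (open), and an asterisk at an edgeR adjusted p below 0.05. miR-150-5p, miR-150-3p and miR-342-3p lie right of 0 and miR-181a-5p left of it in HFD WT over chow WT on both scales, while in HFD Sirt3 AKI over HFD WT the 4 are marked only with library totals.

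On the scale of library totals, the 4 together held 1.40 ± 0.0593% in HFD Sirt3 AKI, 0.950 ± 0.0860% in HFD WT and 0.908 ± 0.0439% in chow WT of all counts (SD, n = 3 each). On the TMM scale their sum was 14424 ± 1606 CPM in HFD Sirt3 AKI, 12063 ± 589 CPM in HFD WT and 6950 ± 197 CPM in chow WT. HFD WT thus lay close to chow WT on the first scale and above it on the second. miR-150-5p alone made up 6840 ± 289 CPM of unscaled library totals in HFD Sirt3 AKI, 4688 ± 431 CPM in HFD WT and 3200 ± 162 CPM in chow WT. miR-181a-5p made up 2151 ± 133 CPM, 1253 ± 183 CPM and 3361 ± 402 CPM of unscaled totals in the same order.

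Ratios of counts within a library do not depend on any scaling between libraries. They were computed on the log2 scale with 0.5 added to each count, and 6 ratios were tested in 3 comparisons, 18 tests in all. The exact two-sided permutation test of 3 against 3 libraries cannot go below p = 0.1, and every ratio with that p had an adjusted p of 0.225. The ratio of miR-150-5p to miR-342-3p varied little, at 0.46 ± 0.062 in HFD Sirt3 AKI, 0.42 ± 0.11 in HFD WT and 0.36 ± 0.090 in chow WT (SD, n = 3 each). Over the 9 libraries it ran from 1.19 to 1.44 on the linear scale. Its differences were 0.059 in HFD WT over chow WT (exact permutation p = 0.5) and 0.048 in HFD Sirt3 AKI over HFD WT (exact permutation p = 0.6), and the groups overlapped.

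The ratio of miR-150-5p to miR-181a-5p separated chow from the high fat diet. It was 3.27, 2.91 and 3.38 in HFD Sirt3 AKI, 4.03, 2.91 and 4.53 in HFD WT, and 0.977, 1.05 and 0.852 in chow WT. Vesicles of chow-fed mice thus held about equal counts of both, and those of the high fat diet groups held several times more miR-150-5p. The mean log2 ratio was 1.91 ± 0.33 in HFD WT and -0.065 ± 0.15 in chow WT, a difference of 1.98 (exact permutation p = 0.1, n = 3 each, no overlap). HFD Sirt3 AKI, at 1.67 ± 0.11, differed from HFD WT by -0.24 (exact permutation p = 0.4, n = 3 each) and from chow WT by 1.74 (exact permutation p = 0.1, n = 3 each). miR-342-3p to miR-181a-5p gave the same order of groups, at 1.21 ± 0.082 in HFD Sirt3 AKI, 1.49 ± 0.40 in HFD WT and -0.42 ± 0.20 in chow WT (SD, n = 3 each). The difference of HFD WT from chow WT was 1.92 (exact permutation p = 0.1, n = 3 each), and that of HFD Sirt3 AKI from HFD WT was -0.29 (exact permutation p = 0.4, n = 3 each).

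miR-150-5p was also set against a single microRNA each of other blood cells, and these ratios do not stand for the lists the partners belong to. Against miR-223-3p, a myeloid and platelet microRNA, the log2 ratio was 0.50 ± 0.11 in HFD Sirt3 AKI, 0.064 ± 0.14 in HFD WT and 0.37 ± 0.037 in chow WT. HFD WT overlapped with neither of the other groups. HFD Sirt3 AKI was higher than HFD WT by 0.44, and the difference of HFD WT from chow WT was -0.31 (exact permutation p = 0.1 each, n = 3 per group). Other microRNAs of that list had smaller log2 fold changes in HFD WT over chow WT than the 1.28 of miR-150-5p, with 0.84 for miR-223-5p, 0.35 for miR-142a-3p and -0.075 for miR-142a-5p, beside 1.59 for miR-223-3p. Against miR-486a-5p, an erythroid microRNA whose counts equal those of miR-486b-5p in every library, it was -4.35 ± 0.054 in HFD Sirt3 AKI, -4.84 ± 0.13 in HFD WT and -4.64 ± 0.15 in chow WT. HFD Sirt3 AKI lay above HFD WT by 0.49 and above chow WT by 0.29 (exact permutation p = 0.1 each, n = 3 per group), again without overlap. HFD WT and chow WT overlapped, with a difference of -0.20 (exact permutation p = 0.3, n = 3 each). In the erythroid list, too, log2 fold changes in HFD WT over chow WT were unequal. They were 2.18 for miR-92a-3p, 1.47 for miR-486a-5p, 1.37 for miR-25-3p and 1.08 for miR-16-5p. Lower values were 0.39 for miR-451a, 0.18 for miR-144-3p and -0.77 for miR-144-5p. Of the 10 in that list, with miR-486a and miR-486b counted separately, 7 were called higher and 1 lower. Their median was 1.42, beside 0.15, 21.5% higher and 16.2% lower for all tested.

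**Figure D3:**
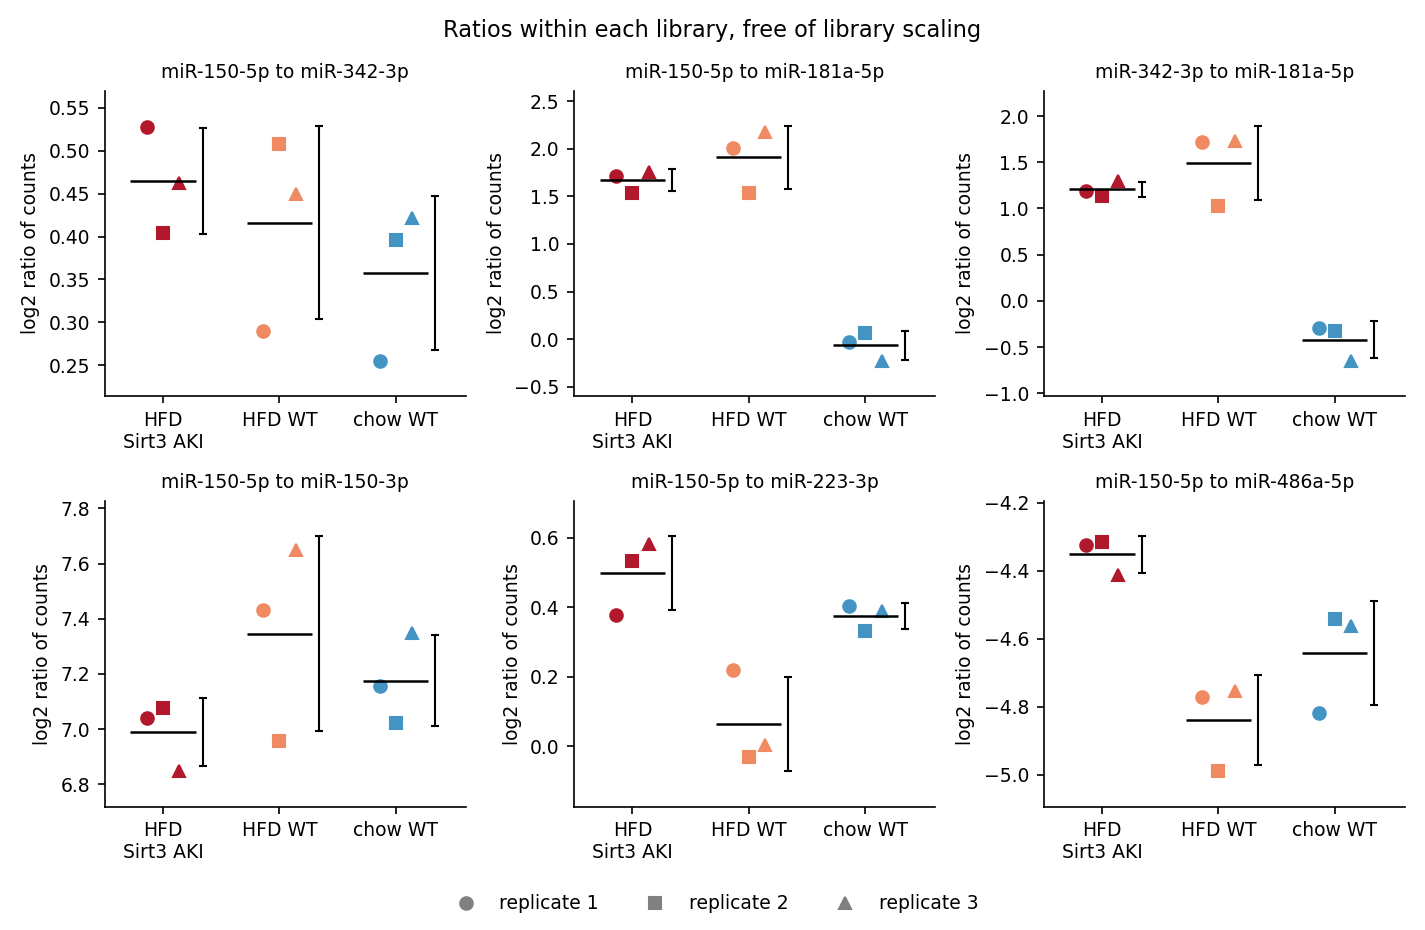
Log2 ratio of counts (y axis, not starting at 0) of 6 pairs of microRNAs in each library by group (x axis), with replicates as circle, square and triangle, the group mean as a line and the SD as a bar. The ratio of miR-150-5p to miR-342-3p overlaps between all groups, while the ratio of miR-150-5p to miR-181a-5p lies at 1.54 to 2.18 in the 6 high fat diet libraries and at -0.23 to 0.068 in chow WT.

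In the hairpins of all 3 microRNAs nearly all reads fell on the same arm in every group. miR-150-3p made up 0.780 ± 0.0686% of the reads of both miR-150 arms in HFD Sirt3 AKI, 0.618 ± 0.157% in HFD WT and 0.633 ± 0.0855% in chow WT (SD, n = 3 each). The log2 ratio of the miR-150 arms did not separate the groups, with exact permutation p from 0.3 to 0.5 (n = 3 each). miR-342-5p, the first arm of the hairpin shown above, had 18 of 33486 reads of both arms in HFD Sirt3 AKI, 17 of 21797 in HFD WT and 2 of 2066 in chow WT, too few for the edgeR test. The 3p arms of both miR-181a hairpins held 3.82 ± 0.630% of miR-181a reads in HFD Sirt3 AKI, 4.49 ± 0.165% in HFD WT and 2.97 ± 0.307% in chow WT. The share was higher in each HFD WT library, at 4.33 to 4.66%, than in any chow WT library, at 2.77 to 3.33%, a difference that was not tested.

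Of the 10 partner arms and seed relatives, 6 had enough counts for the edgeR test and 4 were below its filter. In HFD WT over chow WT 3 of the 6 were lower and none was higher, with a median log2 fold change of -0.80, beside 16.2% called lower, 21.5% called higher and a median of 0.15 over all tested. miR-181b-5p, which shares both clusters with miR-181a, had 287, 365 and 293 CPM in HFD WT against 714, 548 and 698 CPM in chow WT, and fell by 1.05 (SE 0.16, edgeR adjusted p = 3.67e-04). miR-181c-5p had 163, 231 and 155 CPM in HFD WT against 446, 506 and 458 CPM in chow WT, and fell by 1.36 (SE 0.22, edgeR adjusted p = 6.22e-04). Its partner arm miR-181c-3p averaged 39.1 ± 6.53 CPM in HFD WT and 89.5 ± 12.6 CPM in chow WT, and fell by 1.19 (SE 0.24, edgeR adjusted p = 0.00239). The first 2 share the seed of miR-181a-5p. None of these 3 overlapped between the groups, but neither did miR-181d-5p and miR-181a-1-3p, which were not called. How many of all tested microRNAs lacked overlap was not counted. The falls of miR-181b-5p, miR-181c-5p and miR-181c-3p were called under each of the 22 alternatives run.

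The remaining 3 did not pass in that comparison. miR-181d-5p was at -0.54 (SE 0.22, edgeR adjusted p = 0.0767). The partner arms of miR-181a-5p, which tell its loci apart, were at -0.29 for miR-181a-1-3p from chromosome 1 (edgeR adjusted p = 0.348) and at 0.75 for miR-181a-2-3p from chromosome 2 (edgeR adjusted p = 0.251). The last rested on 106 counts in HFD WT against 14 in chow WT.

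In HFD Sirt3 AKI over HFD WT none of the 6 passed edgeR's test, and 2 had an unadjusted p below 0.05, miR-181d-5p and miR-181b-5p. DESeq2 called these 2 as higher. miR-181d-5p was at 0.69 (edgeR adjusted p = 0.0655), with 189, 150 and 205 CPM in HFD Sirt3 AKI against 87.3, 139 and 112 CPM in HFD WT, and was called without HFD Sirt3 AKI replicate 2 (0.84, edgeR adjusted p = 0.00783). miR-181b-5p was at 0.44 (edgeR adjusted p = 0.0988), miR-181c-5p at 0.20 (edgeR adjusted p = 0.614) and miR-181c-3p at -0.091 (edgeR adjusted p = 0.821) with TMM and at 0.21 with library totals (edgeR adjusted p = 0.558). With library totals 2 of the 6 were called higher there, and 5 of the 6 were called lower in HFD WT over chow WT, where 143 of all 414 were lower on that scale. In HFD Sirt3 AKI over chow WT, miR-181b-5p fell by 0.61 (edgeR adjusted p = 0.00940), miR-181c-5p by 1.16 (edgeR adjusted p = 0.00158) and miR-181c-3p by 1.28 (edgeR adjusted p = 0.00137). The first lost its call without chow WT replicate 1 (-0.51, edgeR adjusted p = 0.0608).

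**Figure D4:**
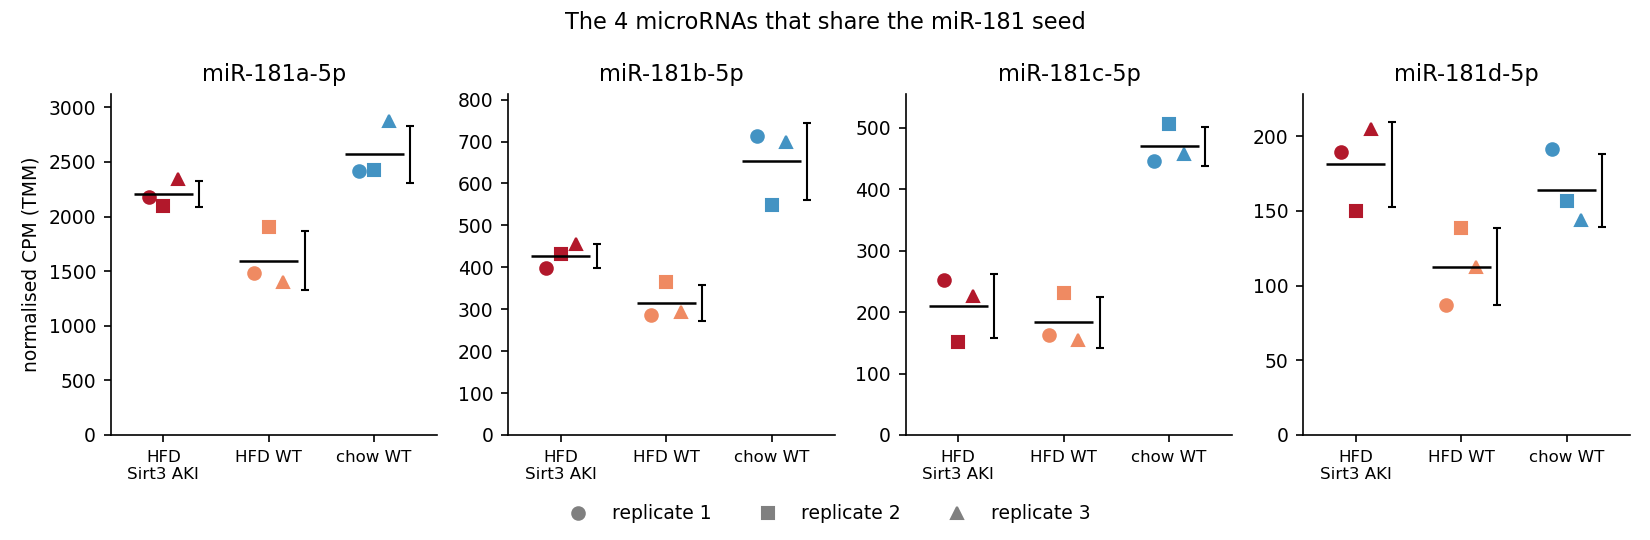
Normalised CPM (y axis, from 0) of the 4 microRNAs with the seed ACAUUCA in each library by group (x axis), with replicates as circle, square and triangle, the group mean as a line and the SD as a bar. HFD WT lies below chow WT in every library for all 4, and miR-181c-5p averages 210 CPM in HFD Sirt3 AKI and 183 CPM in HFD WT, against 470 CPM in chow WT.

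The 4 arms with this seed summed to 3026 ± 197 CPM in HFD Sirt3 AKI, 2207 ± 376 CPM in HFD WT and 3858 ± 279 CPM in chow WT, and the ranges of the groups did not overlap. Within the sum, miR-181a-5p held 73.0 ± 1.03% in HFD Sirt3 AKI, 72.3 ± 1.05% in HFD WT and 66.6 ± 2.36% in chow WT. miR-181c-5p held 6.90 ± 1.51%, 8.25 ± 0.427% and 12.2 ± 1.51% in the same order. The untested arms were scarce, with 43 counts in all libraries for miR-181b-1-3p, 22 for miR-181d-3p and 1 for miR-181b-2-3p. A count of 0 in the whole group would allow up to 0.440 CPM of unscaled totals in HFD Sirt3 AKI, 0.488 CPM in HFD WT and 3.64 CPM in chow WT.

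Other microRNAs known from lymphocytes, a list of 23 of which 21 were tested, did not move as a block. In HFD WT over chow WT 5 were higher and 3 lower, so that about the same part of the list was called as the 37.7% of all tested. The median log2 fold change was 0.21 for the list and 0.15 for all tested. miR-146a-5p, which is induced by NF-kB and dampens its signalling, rose by 1.45 (SE 0.13, edgeR adjusted p = 1.33e-05) to 5416 CPM in HFD WT, against 1986 CPM in chow WT. miR-21a-5p, a widely expressed microRNA that rises in activated T cells, rose by 0.79 (SE 0.11, edgeR adjusted p = 2.83e-04), but was at 0.053 with library totals (edgeR adjusted p = 0.812). miR-155-5p, induced on activation of B and T cells, fell by 1.71 (SE 0.14, edgeR adjusted p = 8.11e-06) to 231 CPM in HFD WT, against 758 CPM in chow WT. miR-10a-5p, found in regulatory T cells and in many other tissues, fell by 0.55 (SE 0.11, edgeR adjusted p = 0.00182). With library totals 1 of the list was higher and 9 were lower, and the median log2 fold change was -0.53 for the list and -0.57 for all tested. The 23 together held 8.87 ± 0.786% of counts in HFD Sirt3 AKI, 7.55 ± 0.329% in HFD WT and 8.66 ± 0.279% in chow WT. On the TMM scale their sums were 90828, 96135 and 66352 CPM in the same order, so the order of groups depends on the scale.

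In HFD Sirt3 AKI over HFD WT none of that list was higher and 2 were lower, beside 1.45% higher and 7.49% lower of all tested. Both belong to the miR-17 to miR-92 cluster, which in mice promotes lymphocyte proliferation. Other microRNAs of the cluster were not called, with log2 fold changes of -0.96 for miR-18a-5p, -0.44 for miR-19a-3p, -0.48 for miR-19b-3p and 0.36 for miR-92a-3p. miR-20a-5p fell by 1.29 (SE 0.17, edgeR adjusted p = 0.00318) to 1113 CPM in HFD Sirt3 AKI, against 2722 CPM in HFD WT. miR-17-5p fell by 1.05 (SE 0.18, edgeR adjusted p = 0.00473) to 81.8 CPM in HFD Sirt3 AKI, against 169 CPM in HFD WT. With the batch label as a term neither passed, with -0.97 for miR-20a-5p (edgeR adjusted p = 0.0652) and -0.96 for miR-17-5p (edgeR adjusted p = 0.172).

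Shares of counts held by markers of other cells are given as a description. Erythroid microRNAs held 52.5 ± 4.98% of counts in HFD Sirt3 AKI, 55.6 ± 1.17% in HFD WT and 40.0 ± 1.23% in chow WT (10 of 10 detected), led by miR-16-5p. The list and the library totals hold both miR-486a and miR-486b, whose counts are equal, so the same values enter these shares more than once. miR-486a-5p alone averaged 139903 CPM of unscaled totals in HFD Sirt3 AKI, 133668 CPM in HFD WT and 79872.5 CPM in chow WT. Myeloid and platelet microRNAs held 1.57 ± 0.157%, 1.65 ± 0.0234% and 2.02 ± 0.0741% in the same order (4 of 4 detected), led by miR-142a-3p. Summed on the TMM scale these were 16182 ± 2503 CPM in HFD Sirt3 AKI, 21053 ± 1036 CPM in HFD WT and 15466 ± 256 CPM in chow WT, so the order of the last 2 groups depends on the scale. Most of this sum came from the 2 miR-142a arms, which are shared by all blood lineages and do not mark other cells alone. miR-142a-3p averaged 9350 CPM and miR-142a-5p 5854 CPM in HFD WT, against 7329 and 6167 CPM in chow WT. miR-223-3p averaged 5709 CPM in HFD WT against 1891 CPM in chow WT. In HFD WT over chow WT 3 of the 4 in this list were higher and 0 lower with TMM, beside 21.5% higher and 16.2% lower of all tested. With library totals 1 was higher and 2 were lower, on a scale where most calls were lower and the median of all tested was -0.57. Hepatocyte microRNAs held 0.868 to 3.48% in HFD Sirt3 AKI, 0.577 to 0.650% in HFD WT and 1.48 to 1.83% in chow WT (4 of 4 detected), led by miR-122-5p in the high fat diet groups and by miR-192-5p in chow WT. Epithelial microRNAs held 0.670 to 1.72%, 0.332 to 0.470% and 1.44 to 1.60% (7 of 7 detected), led by miR-205-5p in the high fat diet groups and by miR-429-3p in chow WT. Brain microRNAs held 0.411 to 0.906%, 0.282 to 0.335% and 0.341 to 0.429% (5 of 5 detected), led by miR-128-3p. HFD Sirt3 AKI replicate 2 held the highest share of its group for hepatocyte, epithelial and brain microRNAs and the lowest for erythroid ones. The part of these lists in the changes of the 4 lymphocyte microRNAs was not tested, and fewer vesicles of a cell type cannot be told apart from less of a microRNA per vesicle.

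**Figure D5:**
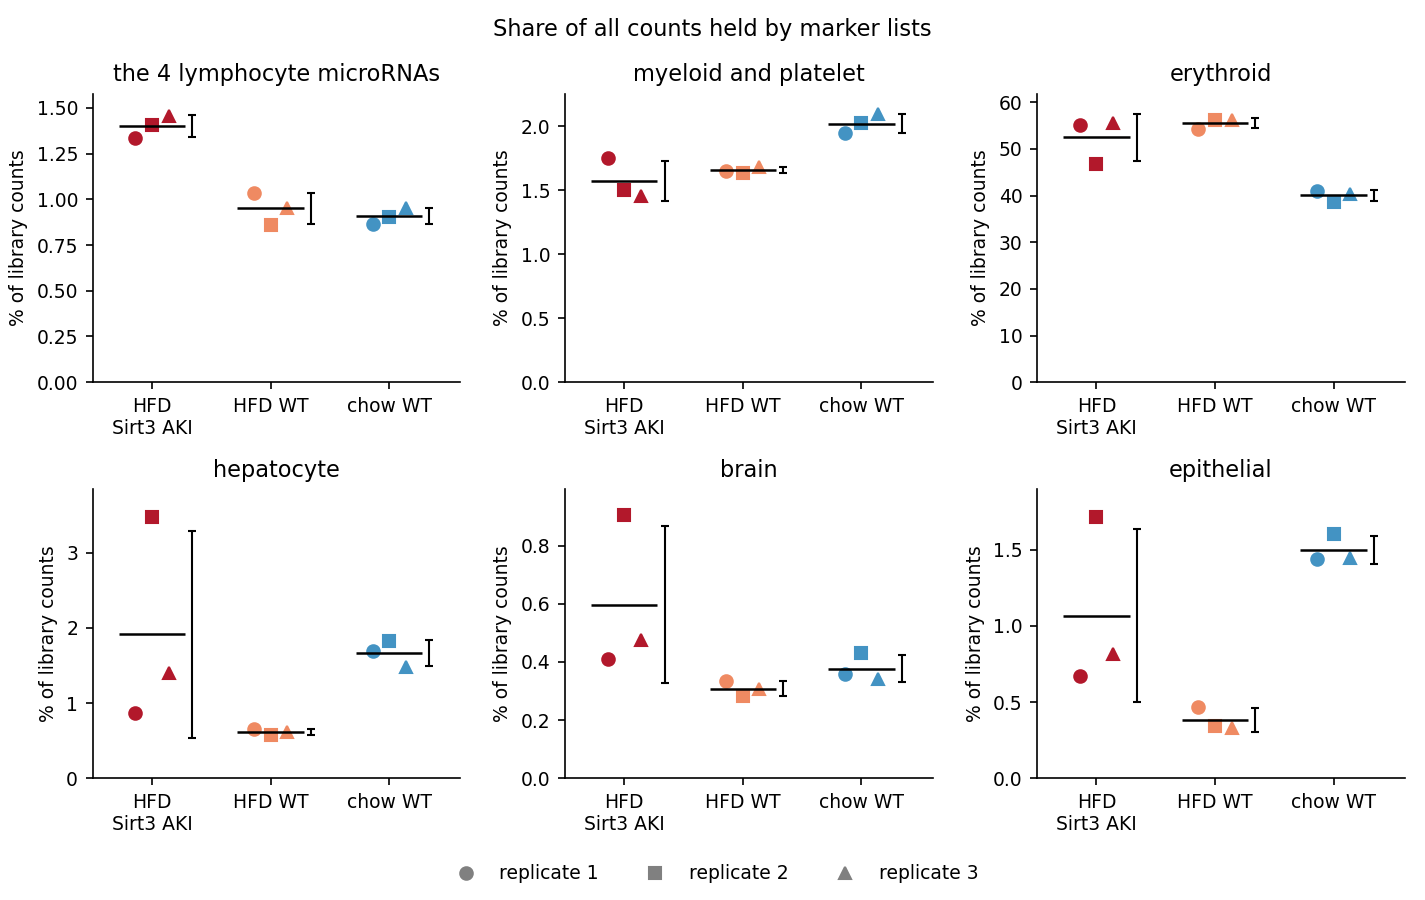
Share of all counts of a library (y axis, percent, from 0) held by the 4 lymphocyte microRNAs and by 5 lists of other cell type markers, by group (x axis), with replicates as circle, square and triangle, the group mean as a line and the SD as a bar. The 4 hold 1.34 to 1.46% in HFD Sirt3 AKI, 0.862 to 1.03% in HFD WT and 0.865 to 0.953% in chow WT. The list of other lymphocyte microRNAs is not drawn. The erythroid share is 54.2 to 56.3% in HFD WT against 38.7 to 41.0% in chow WT. The erythroid share includes the equal counts of miR-486a and miR-486b separately.

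Across the 9 libraries miR-150-5p and miR-342-3p followed each other, with Pearson's r of 0.993 on log2 normalised CPM, and miR-150-5p and miR-150-3p gave 0.949. miR-181a-5p had r of -0.58 with miR-150-5p and -0.62 with miR-342-3p. These are descriptions: the libraries fall into 3 groups, share their scaling and differ in depth by group. Among 402 other tested known microRNAs, the profiles most like miR-150-5p were those of miR-92a-3p (r = 0.990), miR-1198-5p (0.989) and miR-30d-5p (0.987). For miR-342-3p they were miR-328-3p (0.982), miR-511-5p (0.979) and miR-128-3p (0.978). For miR-150-3p they were miR-151-3p (0.972), miR-501-3p (0.968) and miR-30d-5p (0.962). For miR-181a-5p they were miR-200c-3p (0.931), its cluster partner miR-181b-5p (0.915) and miR-100-5p (0.891). miR-92a-3p also stands in the erythroid list, miR-128-3p in the brain list and miR-200c-3p in the epithelial list. miR-511-5p averaged 18.1 CPM in HFD Sirt3 AKI, 8.09 CPM in HFD WT and 0 CPM in chow WT, so its r rests partly on the absence of counts in the shallow chow WT libraries.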

How the data were processed

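The deposited counts, whole numbers for each mature microRNA that the authors made, entered every test, for 1064 known and 105 predicted microRNAs. The deposited TPM values are these counts per 1000000 of the library's total (largest difference 5.00e-05), and served as an alternative. Per the submitters' processing notes, Bowtie 0.12.2 and the build mm8 were named, with no role. How reads were trimmed, matched and counted is not given in the sources used here.

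Counts were filtered (filterByExpr, minimum count 10), scaled by TMM and fitted by quasi-likelihood in edgeR 4.0.16 (R 4.3.3), with group means over all 9 libraries. p-values were adjusted by Benjamini-Hochberg over 414 microRNAs. The step was tested on simulated counts. Exact permutation tests used scipy 1.17.1. Alternatives were DESeq2 1.42.0, limma 3.58.1 on log2(TPM + 1) and log2(TPM + 10), other scalings, filters and designs, and each library left out. Intervals and floors (3 counts) cover counting error only, since reads without molecular identifiers are not independent molecules. No replicates of a group agreed within sampling noise (chi-square per degree of freedom 6.26 to 454).

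The 4 microRNAs and all lists were chosen with earlier results of these data known. Named by rule were the 4, their partners and seed relatives, from the lymphocyte list the 2 largest called rises and falls in the first 2 comparisons, the 3 closest profiles of each microRNA, the leading member of each marker list, and miR-223-3p and miR-486a-5p. Other members of the lymphocyte and other blood cell lists were named after their values were seen. Mature sequences were from RefSeq (GRCm38.p6), host genes from GENCODE M21.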

Additional observations from a re-analysis of the deposited data

How the results depend on the processing

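Each log2 fold change of the 4 microRNAs was recomputed under 22 alternatives and each ratio under 7 or 8. The rise of miR-150-5p and of miR-342-3p and the fall of miR-181a-5p in HFD WT over chow WT, and the 3 rises in HFD Sirt3 AKI over chow WT, kept direction and call under all 22. For the miR-181 relatives and the other named microRNAs the same alternatives were added after seeing the data. The rise of miR-150-3p in HFD WT over chow WT lost its call under 5. In HFD Sirt3 AKI over HFD WT, where none of the 4 was called, library totals called 4, limma on log2(TPM + 1) and on log2(TPM + 10) 4 each, library totals without the erythroid list 2, and DESeq2 size factors, DESeq2, a minimum count of 50 and the larger batch 1 each. Leaving out each library gave 0 to 3 there, 3 to 4 in HFD WT over chow WT and 3 to 3 in HFD Sirt3 AKI over chow WT.

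Over all microRNAs, the 37 calls in HFD Sirt3 AKI over HFD WT became 24 with DESeq2 size factors, 61 with DESeq2, 3 with only the 2 groups compared, 23 in the larger batch and 1 with the batch label as a term. Leaving out each library gave 13 to 102 calls, the highest without HFD Sirt3 AKI replicate 1. The same gave 116 to 188 calls in HFD WT over chow WT and 131 to 178 in HFD Sirt3 AKI over chow WT.

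Direction was reversed in 3 values that had not passed a test. miR-181a-5p in HFD Sirt3 AKI over chow WT was at 0.020 without the filter (edgeR adjusted p = 1). The ratio of miR-150-5p to miR-342-3p in HFD Sirt3 AKI over HFD WT ran from -0.015 without HFD WT replicate 1 to 0.094 without HFD WT replicate 2. The ratio of miR-150-5p to miR-150-3p in HFD Sirt3 AKI over chow WT was at 0.56 with 5 added to each count, an addition near the size of the chow WT counts of miR-150-3p.

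The deviations of same-numbered replicates had r from -0.0803 to 0.191, with 2 of 9 pairs above 0.1. Those of different-numbered replicates had r from -0.223 to 0.145, with 4 of 18 pairs above 0.1. Whether the numbers pair the libraries was not tested. A replicate block gave 154, 31 and 161 calls in HFD WT over chow WT, HFD Sirt3 AKI over HFD WT and HFD Sirt3 AKI over chow WT, and 4, 0 and 3 of the 4 microRNAs. The shallow chow WT libraries limit miR-150-3p most, with 4 to 7 counts each.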
